A study of Rattus norvegicus with 12 samples.

Results

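The subunits and assembly factors of respiratory complexes II to V were measured in CRI-G1-RS cells and set against CRI-G1-RR cells. The probe sets were those with a single gene symbol that belongs to the Sdh, Sdhaf, Uqcr, Cox4 to Cox8, Cox10 to Cox19 or Atp5 series, or that is Cyc1 or Cycs. There were 69 such probe sets for 57 genes, out of 31099 probe sets on the array and 14218 genes with a probe set of their own. Probe sets that carry several symbols were left out, and 7 of them included a symbol of this kind, so Cycs, Uqcrb, Cox7a2, Atp5mc1 and Atp5mc2 were not analysed here.

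CRI-G1 is an insulin-secreting tumour line of the rat. CRI-G1-RR is its rotenone-resistant original form, which can change at random in long culture. CRI-G1-RS is a rotenone-sensitive subclone that was kept as a separate line after a single such change, so each group is a single cell population. Both lines were untreated and were grown alike in high-glucose DMEM with Glutamax, serum and antibiotics. RNA from 6 passages of each line was hybridised to 12 Affymetrix rat arrays. The labels say that passages were taken in pairs but not which arrays form a pair, and p-values below measure the spread between passages of these populations.

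Complex II (succinate dehydrogenase) passes electrons from succinate to ubiquinone, complex III passes them from ubiquinol to cytochrome c, and complex IV (cytochrome c oxidase) passes them to oxygen. Complexes III and IV pump protons, and complex V (ATP synthase) uses the proton gradient to make ATP. In beta cells the ATP so made closes potassium channels and sets off insulin release, and assembly factors insert the cofactors and put the subunits together without staying in the finished complex.

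Arrays of one line resembled each other more than those of the other line, with Pearson r across probe sets of 0.980 to 0.987 within CRI-G1-RR, 0.979 to 0.987 within CRI-G1-RS and 0.952 to 0.965 between lines. Deviations of CRI-G1-RR arrays from their mean correlated at -0.503 to 0.00970 between replicates 1 to 3 and replicates 4 to 6, and at -0.129 to 0.0599 inside these sets, ranges that overlap. Of the islet and beta cell markers 6 of 9 were higher (66.7%, against 21.0% of all genes) and none lower in RS cells. Their summed signal was 21740 to 23687 on RR arrays and 27504 to 29750 on RS arrays. The part of these markers in the results below was not tested. Ins1 was among the uncalled ones, with medians of 6896 on RR and 6499 on RS arrays. None of the 3 other islet hormones was called. Of these Gcg was bright, with medians of 7106 on RR and 6804 on RS arrays, whereas Sst and Ppy were dim. None of the 5 acinar, 5 fibroblast and 5 macrophage markers was called, with no single signal above 149.

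Most genes of complexes II to V differed little between the lines, and those that did were mostly higher in RS cells. By limma, at an adjusted p under 0.05, 16 of 57 genes were higher in RS cells (28.1%, against 21.0% of all genes) and 4 were lower (7.02%, against 18.3% of all genes). No change reached 2-fold, a size passed by 4.85% of all genes, and log2 fold changes (RS minus RR) ran from -0.52 to 0.69, where the upper end is the dim probe set of Cox7b2. The median size of the log2 fold change, without its sign, was 0.110 over the 57 genes and 0.207 over all genes. Of the calls, 80% were higher in RS cells, a share that was 68.4% on the deposited scaling alone and 64.3% with each array centred on its median (9 higher and 5 lower). In total RNA of a culture, fewer cells that express a gene and less RNA per cell cannot be told apart.

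On single arrays, 12 genes had every RS signal above every RR signal and 4 had every RS signal below, against 14.9% and 12.8% of all genes. Over all 69 probe sets, 17 were higher and 5 lower (backgrounds of 16.3% and 15.4%), and no gene had probe sets called in opposite directions. Among the 40 members with a mean signal of at least 1000, 12 were higher and 2 lower (35% called), whereas 55.5% of the 1920 genes that bright were called. The share higher was 30% for these members, near the 29.4% of genes that bright. The share lower was 5% for these members and 26.1% for genes that bright. With RR replicates 1 to 3 alone 11 members were higher and 2 lower, and with replicates 4 to 6 alone 10 were higher and 3 lower.

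**Figure D1:**
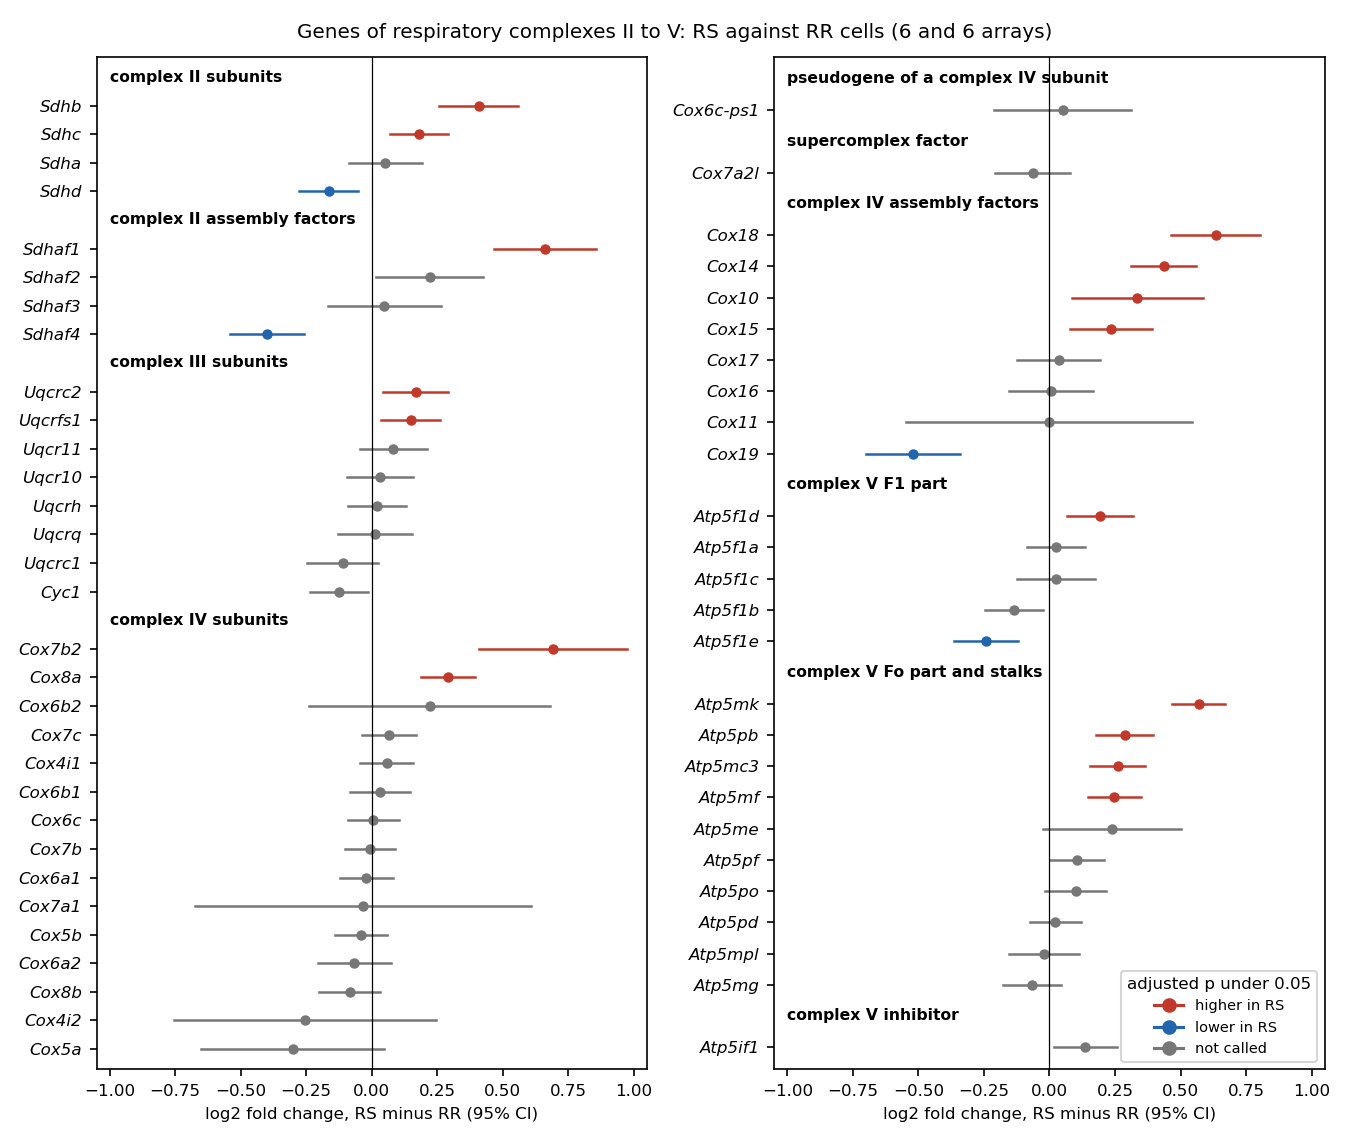
Log2 fold change (RS minus RR, x axis) of the 57 genes grouped by complex and role, with points for the limma estimate and bars for its 95% confidence interval over 6 and 6 arrays. Red marks genes called higher and blue marks genes called lower in RS cells, and no estimate lies outside -0.52 to 0.69.

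The promoters of 4 members follow, as the 150 bases before the RefSeq gene start (build GRCr8, each read on the gene's strand, 5′ to 3′). Sdhaf1, Cox14 and Cox8a were chosen because they rose while the median change of the genes around them was near 0 or below it (neighbour values are given further down), and Cox19 because it fell most. Capitals mark CTTCCGG, the reverse complement of CCGGAAG, which is the core bound by GABPA and other ETS factors. The windows are chr1:94704612-94704761 on the minus strand for Sdhaf1, chr7:132730919-132731068 on the plus strand for Cox14, chr1:213833624-213833773 on the minus strand for Cox8a and chr12:20417239-20417388 on the plus strand for Cox19.
Sdhaf1: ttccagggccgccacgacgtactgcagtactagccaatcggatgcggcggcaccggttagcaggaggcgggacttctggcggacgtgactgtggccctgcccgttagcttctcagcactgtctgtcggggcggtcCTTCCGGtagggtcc
Cox14: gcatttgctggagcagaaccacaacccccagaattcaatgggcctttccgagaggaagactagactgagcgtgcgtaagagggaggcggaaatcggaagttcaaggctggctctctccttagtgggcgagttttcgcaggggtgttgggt
Cox8a: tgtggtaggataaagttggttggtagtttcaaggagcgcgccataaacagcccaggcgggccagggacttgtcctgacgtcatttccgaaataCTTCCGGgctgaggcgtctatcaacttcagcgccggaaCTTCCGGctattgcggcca
Cox19: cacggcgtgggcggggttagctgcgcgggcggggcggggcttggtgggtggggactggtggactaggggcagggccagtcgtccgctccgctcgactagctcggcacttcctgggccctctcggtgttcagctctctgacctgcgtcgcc
The Sdhaf1 window held 1 such match and the Cox8a window 2, while those of Cox14 and Cox19 held none of the 4 motifs searched.

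Motifs were sought over whole RefSeq windows of 300 bases around the start, on both strands and with exact letters. CCGGAAG was found for 18 of the 49 members with a window (36.7%) and for 9.63% of 27457 RefSeq genes with a window. That background is not limited to genes measured or expressed here, and it serves for each motif. It was found for 6 of the 16 raised and 1 of the 4 lowered members. CGCATGCG, the NRF1 core, was found for 6 members (12.2%, against 1.86% of the RefSeq genes), of which Cox18 was the only raised one and none was lowered. AAGATGGC (YY1) was found for 8 members (16.3%, against 3.62%), 4 of them raised and none lowered, and AAGGTCA (ESRRA) for 9 (18.4%, against 4.83%), 2 of them raised and 2 lowered. No motif holds the letters of another, and a match describes the sequence only.

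Complex II had calls in both directions among its 4 subunits. Sdhb, the iron-sulphur subunit, gave normalised signals of 1392, 1459 and 1757 (lowest, median and highest) on RR arrays and 1862, 2036 and 2169 on RS arrays. Every RS array was above every RR array, with a log2 fold change of 0.41 ± 0.0693 (SE; limma adjusted p = 4.82e-04). Sdhc, a membrane anchor that helps bind ubiquinone and haem, went from a median of 1827 (1642 to 1883) to 2038 (1971 to 2118), a log2 fold change of 0.18 (limma adjusted p = 0.0156), but was not called after median centring (limma adjusted p = 0.136) or with the replicate number as a block (limma adjusted p = 0.0677). The other anchor, Sdhd, went from 1954 (1805 to 2037) to 1731 (1611 to 1847), a log2 fold change of -0.16 (limma adjusted p = 0.0275) with overlapping arrays, its other probe set gave -0.03 (limma adjusted p = 0.868), and it was called in 7 of the 12 fits that left out 1 array. Sdha, the flavoprotein that oxidises succinate, was not called, with medians of 1022 and 1067 and a log2 fold change of 0.05 (95% CI -0.09 to 0.19).

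The largest change in complex II was in an assembly factor. Sdhaf1, which helps insert iron-sulphur clusters into the SDHB protein, gave 660, 864 and 957 on RR arrays and 1266, 1340 and 1464 on RS arrays. The groups were well apart, with a log2 fold change of 0.66 ± 0.0897 (SE; limma adjusted p = 7.62e-05). Sdhaf4, which acts on the flavinated SDHA protein before it joins SDHB, gave 291, 312 and 363 on RR arrays and 217, 239 and 254 on RS arrays. It was lower on every RS array, with a log2 fold change of -0.40 ± 0.0648 (SE; limma adjusted p = 3.33e-04). Sdhaf2 and Sdhaf3 were not called, with log2 fold changes of 0.22 and 0.05.

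In complex III 2 of 8 subunits were higher (25%, near the 21.0% of all genes), both by little and with overlapping arrays. Uqcrfs1, the Rieske iron-sulphur protein, had medians of 3046 on RR and 3407 on RS arrays, a log2 fold change of 0.15 (limma adjusted p = 0.0429). Uqcrc2, a core protein, had medians of 2958 and 3298, a log2 fold change of 0.17 (limma adjusted p = 0.0418). Neither call was firm, since Uqcrfs1 was called in 1 and Uqcrc2 in 3 of the 12 fits that left out 1 array, and neither was called with the deposited scaling alone (limma adjusted p = 0.130 and 0.0787).

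Cyc1, the cytochrome c1 subunit, went the other way without a call in the whole fit. Its signals were 1957 to 2155 on RR arrays (median 2014) and 1727 to 1949 on RS arrays (median 1858). All RS arrays were below all RR arrays, yet the log2 fold change was -0.13 with a limma adjusted p of 0.0789, which became 0.0482 on the deposited scaling alone. Uqcrc1, the other core protein, was not called at -0.11 (95% CI -0.25 to 0.02). The remaining 4 subunits, Uqcrq, Uqcrh, Uqcr10 and Uqcr11, lay between 0.01 and 0.08.

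Few subunits of complex IV were called, with 2 of 15 higher (13.3%, against 21.0% of all genes) and none lower (against 18.3%). Cox4i1, the main form of a nuclear-encoded subunit, gave 4220, 4269 and 4460 on RR arrays and 4284, 4460 and 4757 on RS arrays. The arrays overlapped and the log2 fold change was 0.06 (95% CI -0.04 to 0.16, limma adjusted p = 0.415), with a two-sided exact permutation p of 0.0346. The sign of the Cox4i1 value depended on the scaling. It was -0.02 on the deposited scaling alone (limma adjusted p = 0.858) and -0.04 after median centring (limma adjusted p = 0.721). Cox5b, Cox6a1, Cox6b1, Cox6c, Cox7b and Cox7c likewise lay between -0.04 and 0.07, at signals of 2836 to 5830.

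Cox8a, the ubiquitous form of a small subunit, was the exception among the bright subunits. It gave 4869, 5089 and 5474 on RR arrays and 6042, 6276 and 6380 on RS arrays. The lines did not overlap, at a log2 fold change of 0.29 ± 0.0472 (SE; limma adjusted p = 3.32e-04). Cox5a was measured by a dimmer probe set and was not called at -0.30, with a wide interval of -0.65 to 0.05.

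The tissue isoforms of complex IV subunits were close to the bottom of the signal range. Cox4i2, the lung form, and Cox6a2 and Cox8b, heart and muscle forms, did not exceed 30.2 on any array, nor did Cox6b2, a testis form. Cox7a1, a heart and muscle form, ranged from 9.96 to 90.7, and all 5 were uncalled, at log2 fold changes of -0.25 to 0.22. Cox7b2, a testis form, was called higher at 0.69 (limma adjusted p = 0.00103), but its signals were 18.5 to 41.8 on RR and 39.1 to 71.9 on RS arrays, and the value was 0.94 with a pseudocount of 1 and 0.38 with one of 64. Cox7a2l, which joins complexes III and IV in supercomplexes, was not called at -0.06 (95% CI -0.21 to 0.08).

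Of the assembly factors of complex IV, 4 of 8 were higher (50%, against 21.0% of all genes) and 1 was lower (12.5%, against 18.3%). Cox18, which inserts part of the COX2 protein into the inner membrane, gave 229, 250 and 311 on RR arrays and 378, 403 and 433 on RS arrays. Its RS arrays were all above its RR arrays, at a log2 fold change of 0.63 ± 0.0780 (SE; limma adjusted p = 3.40e-05). Cox14, which works on newly made COX1 protein, rose from a median of 1951 (1734 to 2051) to 2555 (2515 to 2822), a log2 fold change of 0.44 ± 0.0579 (SE; limma adjusted p = 6.61e-05). The enzymes of haem A synthesis, Cox10 and Cox15, were chosen after their values were seen and had log2 fold changes of 0.33 (limma adjusted p = 0.0416, arrays overlapping) and 0.23 (limma adjusted p = 0.0254). The Cox10 call was absent in 9 of 12 fits that left out 1 array (limma adjusted p up to 0.0907), and that of Cox15 without RS replicate 1 or RS replicate 6 (limma adjusted p = 0.0569 and 0.0556), after median centring (limma adjusted p = 0.0702) or with the mean of its probe sets (limma adjusted p = 0.0697).

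Cox19, a protein of the intermembrane space with a role in copper delivery to complex IV, was the most lowered member. Its signals were 431, 468 and 564 on RR arrays and 283, 329 and 377 on RS arrays. The groups did not overlap, at a log2 fold change of -0.52 ± 0.0833 (SE; limma adjusted p = 2.98e-04), and a dimmer probe set for it gave -0.83 (limma adjusted p = 1.79e-05). Cox17, the copper chaperone of complex IV, and Cox16 were not called, at 0.04 and 0.01. Counted over complexes II and IV, 7 of 12 assembly factors were called (58.3%), 13 of 42 subunits of the 4 complexes (31%) and 39.2% of all genes, and the difference between these shares was not tested.

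**Figure D2:**
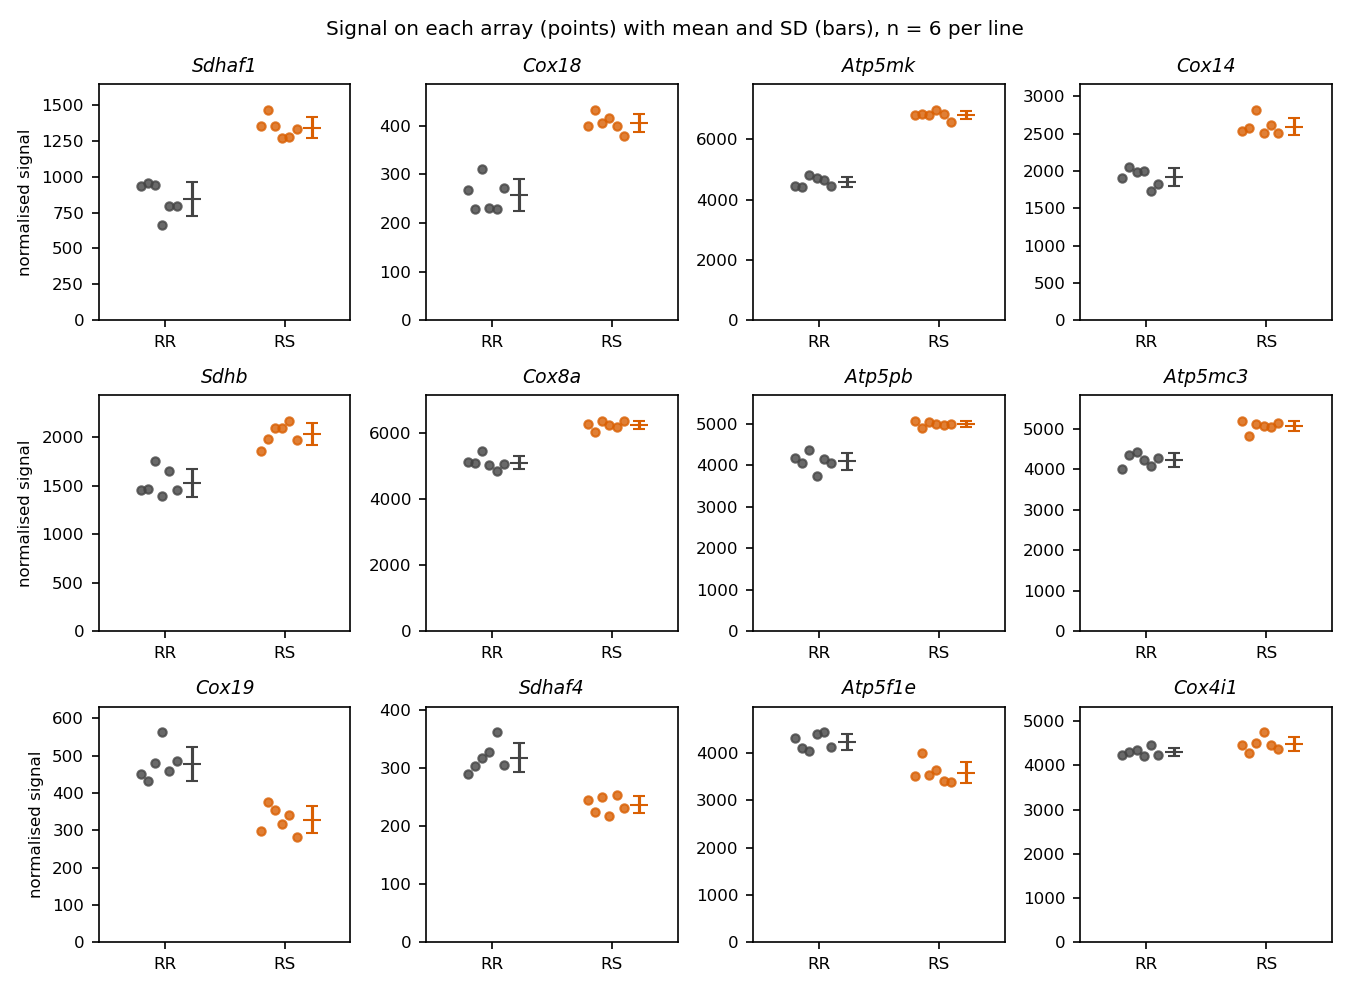
Normalised signal (y axis, linear and from 0) on each of the 6 RR and 6 RS arrays for 8 raised members, 3 lowered members and Cox4i1, with the mean and SD beside the points. Apart from Cox4i1 no panel has overlapping groups, as for Sdhaf1, at 660 to 957 on RR and 1266 to 1464 on RS arrays.

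In complex V 4 of 10 genes for the Fo part and the stalks were higher and none lower, so that 40% were called, close to the 39.2% of all genes called in either direction. Atp5mk, a small subunit also known as DAPIT that helps ATP synthase dimers hold together, gave 4407, 4566 and 4806 on RR arrays and 6582, 6818 and 6984 on RS arrays. It had the lowest adjusted p of all members, at a log2 fold change of 0.57 ± 0.0465 (SE; limma adjusted p = 9.70e-07). Atp5pb, the b subunit of the peripheral stalk, rose from a median of 4102 (3747 to 4365) to 4989 (4895 to 5068), a log2 fold change of 0.29 (limma adjusted p = 5.46e-04).

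Atp5mc3, one of the genes for the c subunit that forms the rotor ring, rose from a median of 4249 (3995 to 4427) to 5094 (4821 to 5196), a log2 fold change of 0.26 (limma adjusted p = 9.12e-04). Atp5mf, the f subunit, was chosen after its values were seen and rose by 0.25 (limma adjusted p = 9.94e-04). After median centring neither was called, at 0.16 and 0.18 (limma adjusted p = 0.0812 and 0.0663). The other members of this set ran from -0.07 for Atp5mg to 0.24 for Atp5me, all uncalled, and Atp5pf had every RS array above every RR array at 0.11 (limma adjusted p = 0.112).

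In the catalytic F1 part 1 of 5 genes was higher (20%, against 21.0% of all genes) and 1 was lower (20%, against 18.3%). Atp5f1a, the alpha subunit, was at 0.03 (95% CI -0.08 to 0.14) and Atp5f1c, the gamma subunit, at 0.02 (95% CI -0.12 to 0.17). Atp5f1b, the beta subunit that holds the catalytic sites, had medians of 7234 and 6563 and was uncalled at -0.14 (limma adjusted p = 0.0640), but was called lower at -0.22 on the deposited scaling alone (limma adjusted p = 0.0154) and at -0.24 after median centring (limma adjusted p = 0.0178). Atp5f1e, the epsilon subunit of the central stalk, fell from 4222 (4044 to 4451) to 3532 (3399 to 4012), with no overlap and a log2 fold change of -0.24 (limma adjusted p = 0.00478), but was not called with RR replicates 1 to 3 alone (limma adjusted p = 0.0616).

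Atp5f1d, the delta subunit beside it in the stalk and chosen after its values were seen, was higher by 0.19 (limma adjusted p = 0.0211) with overlapping arrays, and uncalled on the deposited scaling alone (limma adjusted p = 0.104) and after median centring (limma adjusted p = 0.186). Atp5if1, the inhibitor of ATP hydrolysis, had medians of 2118 and 2339 and was not called (0.14, limma adjusted p = 0.0786). For each gene without overlap the two-sided exact permutation p was 0.00216, the smallest that 6 against 6 arrays allow.

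For the uncalled members the arrays set narrow limits. There were 26 with a mean signal of at least 1000, and for all 26 the 95% confidence interval of the log2 fold change lay inside -0.247 to 0.257, that is at most 1.19-fold in either direction. These limits hold on the quantile normalised scale only. Atp5f1b, which is in this set, was called lower at -0.22 on the deposited scaling alone (limma adjusted p = 0.0154). After median centring it was called lower at -0.24 (limma adjusted p = 0.0178).

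Calls in other parts of the respiratory chain ran in both directions. The list for complex I was drawn by symbol alone. Of its 42 genes with Nduf symbols, 7 were higher (16.7%, against 21.0% of all genes) and 16 lower (38.1%, against 18.3%). Their median log2 fold change was -0.08, against 0.04 over the 57 members and 0.02 over all genes. The largest changes on this list were in Ndufaf4, an assembly factor, at 1.06, in Ndufb8 at 0.52, in Ndufa4l2 at -0.74 and in Ndufa6 at -0.64. The Ndufa4l2 probe set was dim, at 72.8 to 103 on RR and 28.3 to 63.0 on RS arrays. Assembly factors of complexes II to V with other symbols numbered 24, with 4 higher (16.7%) and 7 lower (29.2%), among them Higd1a (0.96), Uqcc2 (0.44), Coa4 (-0.83) and Uqcc1 (-0.54). Of 16 genes for ubiquinone synthesis and electron entry 4 were higher and 4 lower (25% each, near the shares of all genes). Enzymes of ubiquinone synthesis were called in both directions, with Coq3 and Coq7 at 1.02 and 0.76 and Pdss2 at -0.49, and the sulphide oxidising enzyme Sqor fell by 0.77.

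Among 14 regulators of respiratory genes 3 were higher (21.4%, near the 21.0% of all genes) and none lower, namely Ppargc1b (0.44), Polrmt (0.35) and Yy1 (0.30). Of 11 markers of mitochondrial mass 4 were higher (36.4%, against 21.0% of all genes) and none lower, with the chaperone Hspa9 at 0.45 and Immt, which shapes the cristae, at 0.29. The other 7 were not called and ran from -0.14 for Tomm22 to 0.13 for Vdac1, with Cs at -0.0011 and Hspd1 at 0.03. The mitochondrially encoded COX1 and COX2 probe sets were not called, at -0.0020 and 0.0068, but their signals lay near the top of the range, where quantile normalisation gave COX2 the same value on all 6 RS arrays.

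**Figure D3:**
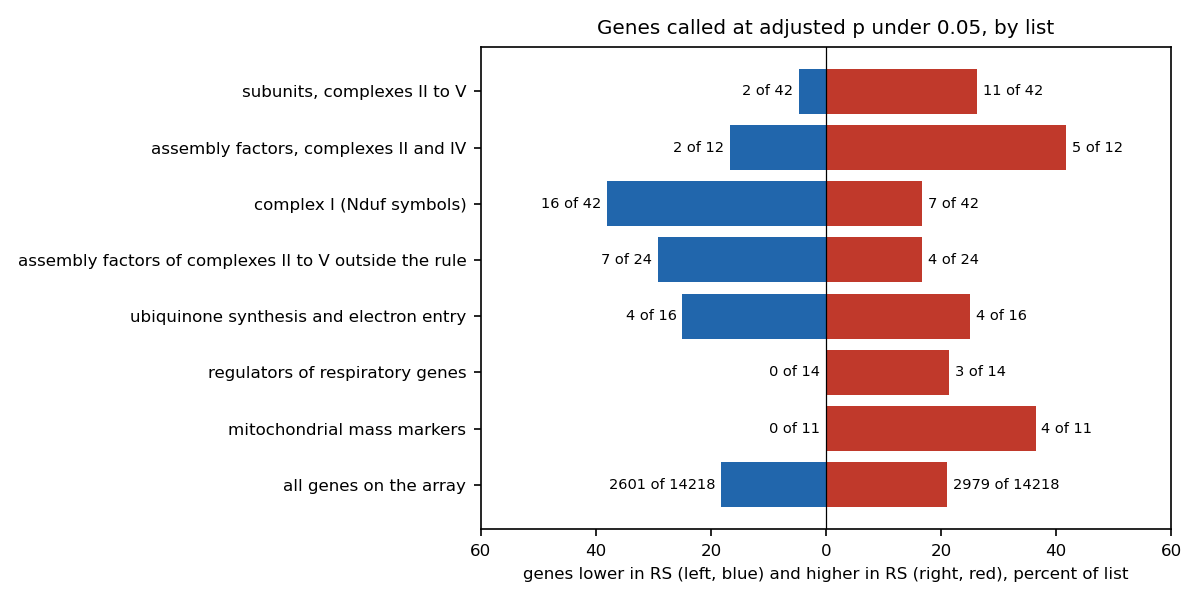
Share of each list called by limma at an adjusted p under 0.05, as percent lower in RS cells (blue, to the left) and percent higher (red, to the right), with gene counts beside the bars. The complex I list, drawn by Nduf symbol, has 16 lower and 7 higher genes of 42, and the subunits of complexes II to V have 2 lower and 11 higher of 42.

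Several raised members lay among genes that were raised as well. For 56 members placed on GRCr8 the median log2 fold change of the 50 nearest genes with a signal of at least 100 was taken, and these medians ran from -0.45 to 0.66. Of the 16 raised members 7 had a neighbour median above 0.2, 5 had one below 0, and 2 of the 36 uncalled members had one above 0.2. All 4 lowered members had a neighbour median below 0, as had 14 of the 36 uncalled members, and 1 lowered and 3 uncalled members had one below -0.2. Across the 56 genes the member's value and its neighbour median had a Pearson r of 0.62 and a Spearman rho of 0.65, a description only, since members that lie close together share neighbours and all values come from the same arrays.

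Cox18 on chromosome 14 (0.63) had a neighbour median of 0.57, with 37 of its 50 neighbours higher and 5 lower. Atp5me on the same chromosome had 45 neighbours higher, none lower and a median of 0.66, though it was itself not called at 0.24. Atp5mk and Cox15 on chromosome 1 had neighbour medians of 0.44 each, and Atp5pb on chromosome 2 one of 0.43, so that Atp5mk lay above its neighbours and Cox15 and Atp5pb lay below theirs. Atp5mf on chromosome 12 (0.31) and Sdhb on chromosome 5 (0.22) also had raised neighbours.

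Other raised members had neighbour medians near 0 or slightly below it. Sdhaf1 on chromosome 1 rose by 0.66 with a neighbour median of 0.03 (16 of 50 higher, 7 lower), Cox14 on chromosome 7 by 0.44 with -0.0036 (15 higher, 13 lower), and Cox8a on chromosome 1 by 0.29 with -0.11 (15 higher, 22 lower). Among the lowered members, Cox19 on chromosome 12 had neighbours with a median of -0.24, with 25 lower and 10 higher, and Atp5f1e on chromosome 3 one of -0.18. Cox6c on chromosome 7 was level at 0.01 while its neighbours had a median of -0.30. Whether position bears on the level of these genes was not tested.

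**Figure D4:**
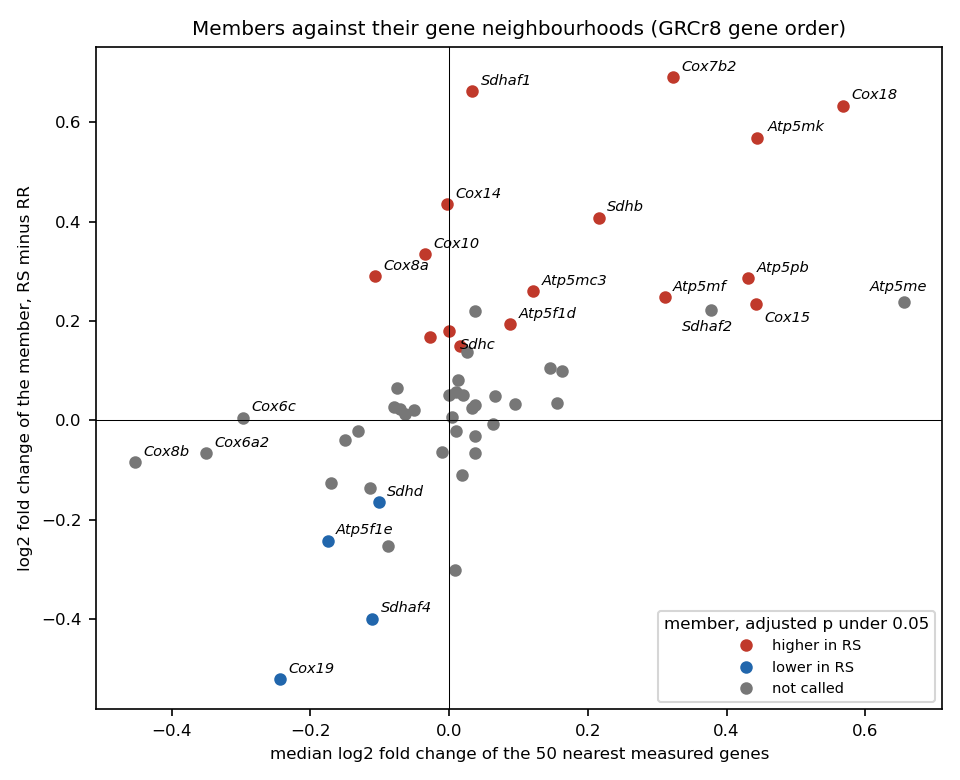
Log2 fold change of each of 56 members (y axis, RS minus RR) against the median log2 fold change of its 50 nearest measured genes (x axis), with red for members higher and blue for members lower in RS cells. Cox18 and Atp5mk sit to the upper right with raised neighbours, whereas Sdhaf1, Cox14 and Cox8a are raised beside neighbour medians of 0.03, -0.0036 and -0.11.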

How the data were processed

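Total RNA of 12 cultures was hybridised to Affymetrix rat expression arrays. The deposited values are linear signals, scaled by the authors to a 2% trimmed mean of about 250 on every array (250.068 to 250.075), with GCOS 1.4 named in the submitters' processing notes, whereas the methods describe RMA, which these values are not. Signals ran from 0.0271 to 11366 and carry no detection calls, so precision rests on the number of arrays. They were quantile normalised, 16 was added, and log2 values were fitted with limma 3.58.1 (R 4.3.3) on cell type alone, as in the methods, with Benjamini-Hochberg adjustment over 31099 probe sets and a threshold of 0.05. A normalised signal is the fitted scale turned back, less 16. Each gene was represented by its brightest probe set. Probe sets had 1 symbol (20832), several (436) or none (9831), from the platform annotation, and RefSeq (GRCr8) gave gene order for 56 of 57 members and the promoter sequences. The script was tested on simulated data.

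Members and lists were chosen with earlier results of these data known. Genes were described by rule: up to 8 members per direction with the largest called change and no overlap between arrays, set subunits whatever their values, and up to 2 genes per direction of every other list. Replicate numbers were not used to pair arrays. Alternatives covered scaling, pseudocount, a signal filter, cross-hybridising probe sets, the replicate block, an intensity trend, array weights, the gene mean, each array left out and each set of RR replicates alone.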

Additional observations from a re-analysis of the deposited data

Results flagged for a closer look

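Of 72 sets of 6 arrays (36 genes, both lines), 4 held an array whose gap to the nearest other array, as a share of the set's whole range, passed the 95% critical value of the Dixon test for 6 values; chance flags about 1 in 20. Cox14 on RS replicate 3 was highest, with a signal of 2822 against 2515 to 2624 on the others (share 0.631). Cox8b on RS replicate 2 was highest, at 2.39 against 1.51 to 1.82 (share 0.647). Cox7b2 on RS replicate 2 was lowest, at 39.1 against 58.7 to 71.9 (share 0.650). Cox15 on RR replicate 5 was lowest, at 501 against 627 to 654 (share 0.841).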

How the results depend on the processing

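The main counts were 16 members higher, 4 lower and 22 probe sets called. Leaving out 1 array at a time gave 12 to 16 higher and 3 to 5 lower. Median centring gave 9 higher, RR replicates 1 to 3 alone gave 2 lower and 14 probe sets, and RR replicates 4 to 6 alone gave 10 higher and 14 probe sets, with fewer arrays in both. The fit with the replicate block gave 12 higher and 3 lower, with Sdhc, Sdhd, Uqcrfs1, Uqcrc2 and Cox15 no longer called, but the numbers were not taken as pairs, since the labels do not tie them to the paired passages, deviations of same-numbered arrays correlated at -0.0442 to 0.210 and only 2 of 6 RS arrays correlated best with their own number. No called member was called in the opposite direction under any alternative run. For 36 named genes, 771 of 859 recomputed values kept their direction and side of the threshold, apart from 24 uncalled values that changed sign, 71 lost the call and 17 gained one. Sdhd was not called in 5 of 12 fits without 1 array. Causes were not tested. Dim probe sets such as Cox7b2 and Cox11 limit what can be said of those genes.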
